A study of Homo sapiens with 6 samples.

Results

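The interferon receptor genes IFNAR1, IFNAR2, IFNGR1 and IFNGR2, the kinase genes JAK1 and JAK2, the transcription factor gene STAT2 and the inhibitor genes SOCS1 and SOCS3 were described in SMARCA4 knockout cells against the parental line. These 9 genes were taken by symbol from a table of 59050 symbols per library, and all 9 were found and tested. The RNA was from the human cell line H2122, derived from a lung cancer. The SMARCA4 knockout group had 3 libraries and the parental group, labelled WT, had 3; both groups were given vehicle only, and no interferon treatment is named for either. Titles of the knockout samples all carry the number 1, and those of the parental samples carry 1, 3 and 6, with no word on its meaning. Should that number stand for a clone, all knockout libraries came from 1 clone, whose own features and the knockout cannot be told apart. Nothing in the labels says that replicates were grown separately, so the spread behind each p-value may be technical.

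Type I interferons bind a receptor made of the IFNAR1 and IFNAR2 chains, and interferon gamma binds one made of IFNGR1 and IFNGR2. Ligand binding brings together Janus kinases on the receptor tails, JAK1 on the ligand-binding chains and JAK2 on IFNGR2, and these phosphorylate STAT proteins that move to the nucleus. STAT2 is a subunit of ISGF3, the factor that binds the interferon-stimulated response element (ISRE) after type I interferon, whereas interferon gamma acts through the gamma-activated site (GAS). SOCS1 and SOCS3 are induced by this signalling and feed back on it, SOCS1 by binding JAKs and SOCS3 by binding JAKs together with gp130-type receptors.

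Libraries held between 55120937 and 59917980 reads assigned to genes. Levels are read counts relative to TMM-scaled library size (CPM), and changes are log2 fold changes of knockout over parental libraries with their standard error (SE) from edgeR's quasi-likelihood test. A gene is said to have risen or fallen where its p, adjusted by Benjamini-Hochberg over all 17809 genes tested, was below 0.05. SMARCA4, the targeted SWI/SNF ATPase gene, averaged 21.6 ± 2.93 CPM in knockout and 260.3 ± 65.2 CPM in parental libraries (SD, n = 3 each; log2 fold change -3.59, adjusted p = 0.000176). SMARCA2, the alternative ATPase, averaged 67.7 ± 2.42 CPM in knockout and 67.1 ± 7.30 CPM in parental libraries (adjusted p = 0.943). Of 6 markers of epithelial lung carcinoma, 5 fell and 1 did not pass, and their summed level was 3160 to 3420 CPM in knockout libraries and 6930 to 7700 CPM in parental ones. EPCAM, an epithelial adhesion molecule, averaged 74.2 ± 4.92 CPM in knockout and 370.6 ± 39.3 CPM in parental libraries. Of 6 blood cell markers 3 were tested; the 2 called, LYZ and CD79A, reached the low-count filter (0.173 CPM or more, in 3 libraries) in parental libraries only, so they could only be called falling. The summed level of the 6 was 0.436 to 0.729 CPM in knockout libraries and 1.39 to 1.88 CPM in parental ones, and the pan-leukocyte gene PTPRC had 0 reads in all 6. Of 4 endothelial markers 2 were tested and 1, CDH5, was called as rising, having reached the filter in knockout libraries only, with sums of 0.907 to 1.40 CPM in knockout and 0.510 to 0.560 CPM in parental libraries, and of 6 fibroblast markers 2 rose and 1 fell, with sums of 53.4 to 58.1 CPM in knockout and 39.3 to 110.0 CPM in parental libraries. COL3A1, 1 of the 2 fibroblast markers that rose, reached the filter in only some parental libraries, so it passed through the knockout ones. Without parental replicate 3, 6 epithelial markers fell, 2 endothelial markers rose and 1 fell of 3 tested, the blood and fibroblast counts were the same, and the fibroblast sum was 39.3 to 46.5 CPM in parental libraries. In that fit CDH5 and PECAM1 reached the filter in knockout libraries only and VWF in parental libraries only. The direction in which each endothelial marker could be called was therefore fixed. The part of these shifts in the results below was not tested, and in bulk RNA fewer cells of a type and less RNA per cell cannot be told apart. Parental replicate 3 stood apart from the other parental libraries along the second principal component, which held 22.9% of the variance, so counts and changes of the genes below are also given without it where they differ.

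Of the 9 genes, 3 rose (IFNGR1, SOCS3 and IFNAR2), 1 fell (SOCS1) and 5 did not pass (IFNAR1, IFNGR2, JAK1, JAK2 and STAT2). Among all genes tested, 27.6% were called, with 13.3% rising and 14.3% falling. Knockout and parental libraries did not overlap for 5 of the 9 genes, against 49.8% of all genes tested, so this count is close to the background. The median log2 fold change was 0.25 over the 9 genes and 0.02 over all genes tested. Without parental replicate 3 the middle value of the 9 was 0.06, that of IFNAR1, and the median over all genes was 0.04. SOCS1 passed the low-count filter through the parental libraries alone, so its call is not support for the count. Without parental replicate 3, 61.6% of genes were called (30.8% rising and 30.8% falling), and of the 9 genes 3 rose, 2 fell and 4 did not pass. With a single knockout library or parental replicate 1 left out, IFNGR1 and SOCS3 remained the only called genes of the 9.

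**Figure D1:**
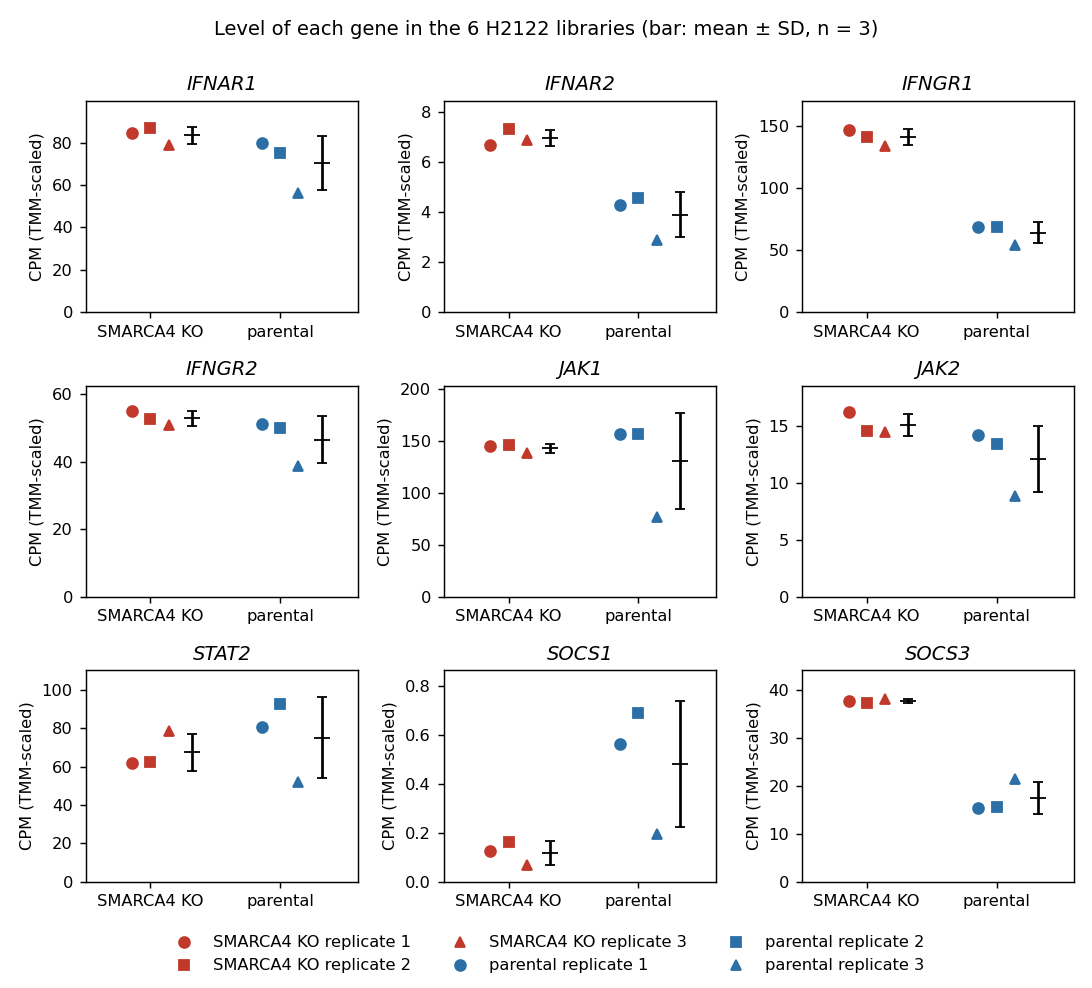
CPM of each of the 9 genes in the 3 SMARCA4 knockout libraries (red) and the 3 parental libraries (blue), with symbols for replicates and bars for the mean ± SD. IFNGR1, SOCS3 and IFNAR2 lie higher in every knockout library than in any parental one, and SOCS1 lies lower. JAK2, which was not called, also lies higher in every knockout library, by a narrow gap (14.5 against 14.2 CPM). Parental replicate 3 (blue triangle) lies below both other parental libraries in every panel except SOCS3.

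The ligands of these receptors were almost without reads. Of 22 interferon genes, 21 had 0 reads in all 6 libraries, among them IFNB1, IFNG and every interferon alpha gene listed. Interferon epsilon, encoded by IFNE, averaged 2.11 ± 0.284 CPM in knockout and 1.15 ± 0.669 CPM in parental libraries. That difference did not pass (0.86, SE 0.49, edgeR adjusted p = 0.246). At this depth 3 reads per library correspond to 0.0497 to 0.0544 CPM, a limit that covers counting error only.

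IFNGR1 (chromosome 6, 137197484 to 137219449, GRCh38) encodes the ligand-binding chain of the interferon gamma receptor. It measured 146.9, 141.1 and 133.9 CPM in the 3 knockout libraries, against 68.5, 68.6 and 54.2 CPM in the parental ones. Every knockout library was well above every parental one. The log2 fold change was 1.14 (SE 0.13, 95% interval 0.84 to 1.45, adjusted p = 0.00139), a 2.20-fold rise, and it was 0.99 without parental replicate 3. IFNGR2 (chromosome 21, 33402896 to 33479348) encodes the second chain, which carries JAK2. It measured 54.9, 52.4 and 50.8 CPM in the 3 knockout libraries, against 51.0, 49.9 and 38.5 CPM in the parental ones. The groups overlapped, and the change of 0.18 did not pass (SE 0.13, 95% interval -0.14 to 0.51, edgeR adjusted p = 0.364). In GENCODE 29, 12.8% of the IFNGR2 exon bases are also exon of TMEM50B on the opposite strand, so without strand reads there cannot be told apart.

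IFNAR2 (chromosome 21, 33229901 to 33265675) encodes the high-affinity chain of the type I receptor. It measured 6.68, 7.33 and 6.89 CPM in the 3 knockout libraries, against 4.29, 4.55 and 2.87 CPM in the parental ones. The groups did not overlap, and parental replicate 3 was the lowest. IFNAR2 rose by 0.84 on the log2 scale (SE 0.21, 95% interval 0.33 to 1.34, edgeR adjusted p = 0.0287), a 1.78-fold change that became 1.52-fold without parental replicate 3 (edgeR adjusted p = 0.000222). IFNAR2 was no longer called when knockout replicate 1, 2 or 3 or parental replicate 1 was left out (adjusted p up to 0.108) and with no low-count filter (adjusted p = 0.0565). IFNAR2 counts are also uncertain because 83.2% of its annotated exon bases are shared with other genes. The gene AP000295.1, which spans IFNAR2 and the adjacent IL10RB on the same strand, shares 44.2% of them and had 0 reads in all 6 libraries. IL10RB-DT, on the opposite strand, shares 39.1% and had between 1 and 6 reads. If reads from shared bases were set aside as ambiguous, as HTSeq does by default, they are missing from the IFNAR2 count in both groups; the counting mode is not given in the sources used here.

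IFNAR1 (chromosome 21, 33324477 to 33359862) encodes the other chain of the type I receptor, and none of its exon bases are shared. It measured 84.6, 86.8 and 78.9 CPM in the 3 knockout libraries, against 80.1, 75.0 and 56.1 CPM in the parental ones. The lowest knockout library lay within the parental range. The change of 0.25 did not pass (SE 0.15, 95% interval -0.12 to 0.61, adjusted p = 0.286), and without parental replicate 3 the interval narrowed to -0.05 to 0.17.

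JAK1 (chromosome 1, 64833229 to 64966504) is used by both receptor types. It measured 144.9, 146.6 and 138.2 CPM in the 3 knockout libraries, against 157.2, 157.4 and 77.4 CPM in the parental ones. All knockout libraries lay between parental replicate 3 and the other parental libraries. The change of 0.13 (SE 0.27, adjusted p = 0.76) turned to -0.18 without parental replicate 3, where it passed (SE 0.04, adjusted p = 0.00232). So the direction for JAK1 depended on 1 library. JAK2 (chromosome 9, 4984390 to 5128183) measured 16.2, 14.6 and 14.5 CPM in the 3 knockout libraries, against 14.2, 13.4 and 8.81 CPM in the parental ones. Every knockout library was above every parental one, although the closest pair, at 14.5 CPM in knockout and 14.2 CPM in parental, lay near each other. The change of 0.32 did not pass (SE 0.20, 95% interval -0.17 to 0.80, adjusted p = 0.3), and it was 0.08 without parental replicate 3.

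STAT2 (chromosome 12, 56341597 to 56360155) measured 61.8, 62.3 and 78.7 CPM in the 3 knockout libraries, against 80.8, 92.9 and 51.8 CPM in the parental ones. The groups overlapped, and 1 library of each group stood away from the other two. The change was -0.15 (SE 0.23, 95% interval -0.72 to 0.41, adjusted p = 0.666). It was -0.41 without parental replicate 3, where it also did not pass (SE 0.15, adjusted p = 0.0632), and 0.02 without parental replicate 2.

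**Figure D2:**
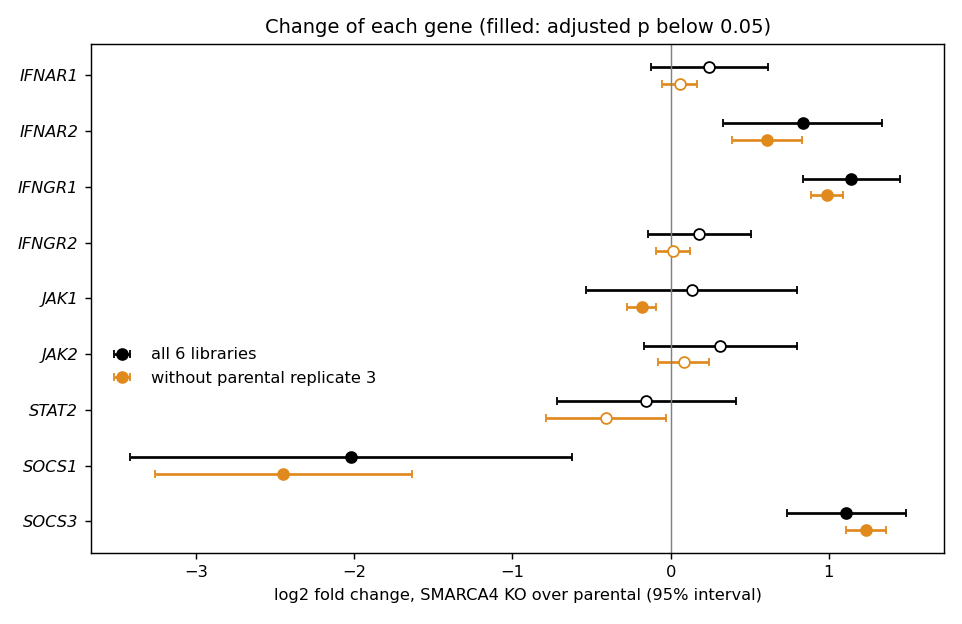
Log2 fold change of each gene, SMARCA4 knockout over parental, with its 95% interval from edgeR's quasi-likelihood fit, for all 6 libraries (black) and without parental replicate 3 (orange). Filled points have an adjusted p below 0.05. The intervals of IFNGR1 and SOCS3 lie wholly above 0.7 in both fits, and JAK1 changes side between the fits.

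SOCS3 (chromosome 17, 78356778 to 78360077) measured 37.8, 37.4 and 38.3 CPM in the 3 knockout libraries, against 15.4, 15.7 and 21.5 CPM in the parental ones. The knockout libraries differed among themselves by less than 1 CPM, with a coefficient of variation of 1.20%, and all lay above the parental range. The log2 fold change was 1.11 (SE 0.15, 95% interval 0.73 to 1.49, adjusted p = 0.00348), a 2.16-fold rise, and 1.23 without parental replicate 3. The SOCS3 call held in every alternative fit tried.

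SOCS1 (chromosome 16, 11254405 to 11256200) was the lowest of the 9 genes. It had 7, 9 and 4 reads in the knockout libraries, against 32, 41 and 11 reads in the parental ones. As CPM these were 0.124, 0.163 and 0.0663 in knockout libraries, against 0.560, 0.687 and 0.194 in parental libraries. The groups did not overlap, but parental replicate 3 was within 2 reads of the highest knockout library. The log2 fold change was -2.02 (SE 0.58, 95% interval -3.42 to -0.62, adjusted p = 0.045), which is 4.06-fold lower in the knockout. SOCS1 reached the low-count filter in parental libraries only, so it could only be called falling, and its call is not support for a fall. The call was also made without parental replicate 3 (-2.45, adjusted p = 0.000105). It was lost when any other library was left out (adjusted p up to 0.153), with upper-quartile factors (adjusted p = 0.052) and with limma-voom (adjusted p = 0.0715).

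Promoter windows, 250 bases before to 50 after each RefSeq gene start, were searched on both strands for an ISRE core (GAAA, 2 bases of any kind, GAAA), a GAS (TTCNNNGAA) and an AP-1 site (TGANTCA). RefSeq windows on GRCh38.p14 were matched for 8 of the 9 genes. SOCS1 was the only one with a match, 1 ISRE core at positions -113 to -104 from its start. No window of the 8 matched genes held a GAS or AP-1 match. For SOCS3, IFNGR2 and IFNAR1, no RefSeq window covered the gene start at the position given above. The bases at those starts were therefore not searched, and the lack of a match does not extend to them. Over all promoter windows, 3.57% held the ISRE core, 7.66% the GAS and 7.71% the AP-1 letters. By gene, the ISRE core was in 80% of 25 ISGF3 target genes with a window, against 4.38% of all 27305 genes. The SOCS1 sequence is shown as the only match in the searched windows of these genes. It stands beside matches in MX1 and PARP12, ISGF3 targets described below that fell. The core was also in the windows of IFI6, which rose, and of PARP14, EPSTI1 and IFIT5, which were not called. SAMD9L, which fell, had a window without it. The match is a description and not a shown binding site, and a part of it in the changes was not tested. The bases before the SOCS1 start (chr16:11256205-11256454, minus strand) are followed by 30-base windows at matches in MX1 (chr21:41420559-41420588 and chr21:41431844-41431873, plus strand) and PARP12 (chr7:140062942-140062971, minus strand), with the match in capitals. The second MX1 line and the PARP12 line hold the match on the opposite strand, so its reverse complement is in capitals.
SOCS1: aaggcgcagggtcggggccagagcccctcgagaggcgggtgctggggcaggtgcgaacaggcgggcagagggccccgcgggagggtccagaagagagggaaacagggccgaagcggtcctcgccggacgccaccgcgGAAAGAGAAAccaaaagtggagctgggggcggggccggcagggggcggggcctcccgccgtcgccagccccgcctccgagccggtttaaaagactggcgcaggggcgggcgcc
MX1, first start: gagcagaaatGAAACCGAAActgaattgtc
MX1, second start: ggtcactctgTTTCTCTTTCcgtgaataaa
PARP12: ccggggccgcTTTCGGTTTCgtttcccgcc

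Genes that act in pairs were compared within each library, so that scaling plays no part. The IFNGR2 to IFNGR1 read ratio was 0.374, 0.372 and 0.379 in knockout libraries, against 0.745, 0.727 and 0.711 in parental ones. On the log2 scale the knockout mean was lower by 0.96, many times the SD in either group (0.02 in knockout and 0.03 in parental libraries), and parental replicate 3 kept the ratio of its group although both genes were lower there. The IFNAR2 to IFNAR1 ratio was 0.0791, 0.0845 and 0.0874 in knockout libraries, against 0.0537, 0.0608 and 0.0512 in parental ones, a log2 difference of 0.60. The SOCS3 to SOCS1 ratio was 285, 217 and 513 in knockout libraries, against 27.1, 22.6 and 106 in parental ones, a log2 difference of 2.98 that was 3.68 without parental replicate 3. SOCS1 supplies 4 to 41 reads per library to this ratio and reached the low-count filter in parental libraries only. The JAK2 to JAK1 ratios overlapped, with a log2 difference of 0.14 (exact permutation p = 0.4). For the first 3 ratios the groups did not overlap and the two-sided exact permutation p was 0.1, the smallest that 3 against 3 libraries allow, or 0.133 adjusted over the 4 ratios. None of the 4 therefore passed 0.05 by this test.

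**Figure D3:**
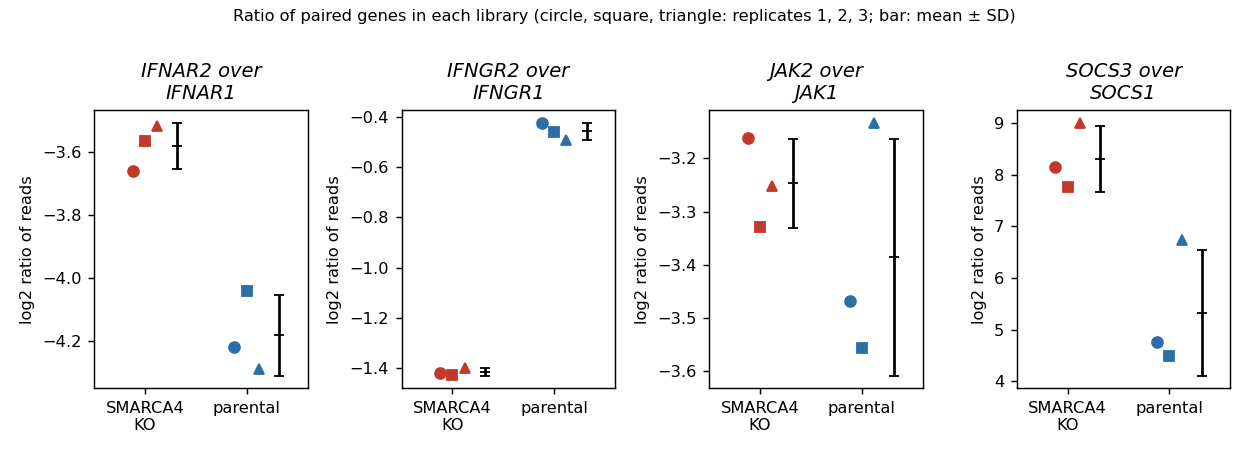
Log2 ratio of reads of 4 gene pairs in each library, SMARCA4 knockout (red) left of parental (blue), with bars for the mean ± SD over 3 libraries. The IFNGR2 to IFNGR1 ratios form 2 tight groups about 0.96 apart, and the JAK2 to JAK1 ratios overlap.

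Levels can be compared between genes only per length, here as CPM per kilobase of exon not shared with another gene. In knockout libraries IFNGR1 was highest at 40.9 to 44.8, followed by JAK1 at 21.9 to 23.2 and IFNGR2 at 19.7 to 21.3. SOCS3 (mean 13.8), IFNAR1 (12.5 to 13.8) and STAT2 (10.1 to 12.9) came next, and each overlapped its neighbour in this order. IFNAR2 stood at 8.62 to 9.46, JAK2 at 2.35 to 2.62 and SOCS1 at 0.0369 to 0.0909. In parental libraries JAK1 (12.3 to 24.9), IFNGR1 (16.5 to 20.9) and IFNGR2 (14.9 to 19.8) were not separated beyond their spread. STAT2 (8.48 to 15.2) overlapped both IFNGR2 and IFNAR1 (8.90 to 12.7). SOCS3 (5.64 to 7.85) and IFNAR2 (3.70 to 5.88) overlapped as well, and JAK2 (1.43 to 2.30) and SOCS1 (0.108 to 0.382) were lowest. On this scale IFNGR1 stood apart from IFNGR2 in knockout libraries, whereas the ranges of the 2 chains overlapped in parental ones. Within each parental library IFNGR1 was still the higher, at 20.9 against 19.8, 20.9 against 19.3 and 16.5 against 14.9. The IFNAR2 value rests on 775 unshared bases and on reads from shared bases not having been counted, so its place in the order is uncertain.

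The spread of the parental group came mostly from 1 library. In parental replicate 3, 8 of the 9 genes were below both other parental libraries, by log2 differences from -0.34 for IFNGR1 to -1.64 for SOCS1, with JAK1 at -1.02 and STAT2 at -0.75. SOCS3 was above both, by 0.46. Among all genes tested, that library was below both others for 45.4% and above both for 45.7%. The knockout libraries varied less, with coefficients of variation from 1.20% for SOCS3 to 14.3% for STAT2, and 41.5% for SOCS1, whose reads were few.

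Other genes of the pathway are given by list, beside the 27.6% of all genes called, or the 61.6% called without parental replicate 3. Of 11 further genes for receptors, kinases, STATs and IRF9, none rose and 3 fell, a share near that of all genes, with a median of -0.07 against 0.02 over all genes. STAT4, which acts in interleukin-12 and type I interferon signalling, averaged 1.74 ± 0.159 CPM in knockout and 6.25 ± 0.470 CPM in parental libraries (-1.85, adjusted p = 0.000496). STAT6, the factor of interleukin-4 signalling, averaged 99.3 ± 6.92 CPM in knockout and 187.5 ± 16.1 CPM in parental libraries (-0.92, adjusted p = 0.00198). STAT3, the main factor downstream of gp130 receptors, averaged 165.4 ± 2.33 CPM in knockout and 235.9 ± 41.5 CPM in parental libraries (-0.51, adjusted p = 0.0422), a call lost when any library other than parental replicate 3 was left out (adjusted p up to 0.161). IRF9, the DNA-binding subunit of ISGF3 and named after its values were seen, averaged 1.44 ± 0.153 CPM in knockout and 1.51 ± 0.238 CPM in parental libraries (adjusted p = 0.842). Without parental replicate 3, 2 of the 11 rose and 4 fell, with a median of -0.12.

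Of 18 other negative regulators, 2 rose and 6 fell, with a median of -0.02. SOCS6, of the same family as SOCS1 and SOCS3, averaged 38.7 ± 1.26 CPM in knockout and 18.3 ± 3.13 CPM in parental libraries (1.08, adjusted p = 0.00327). SOCS5 averaged 33.8 ± 1.65 CPM in knockout and 21.04 ± 2.44 CPM in parental libraries (0.68, adjusted p = 0.00866), a call lost without knockout replicate 2 (adjusted p = 0.0519). PTPN6, the phosphatase SHP-1, averaged 5.07 ± 0.250 CPM in knockout and 24.4 ± 0.205 CPM in parental libraries (-2.26, adjusted p = 7.2e-05). The ubiquitin-like modifier gene ISG15 averaged 3.30 ± 0.374 CPM in knockout and 12.5 ± 2.09 CPM in parental libraries (-1.92, adjusted p = 0.00075). Without parental replicate 3, 7 of the 18 rose and 7 fell, beside 61.6% of all genes called in that fit, with a median of -0.13. With a knockout library or parental replicate 2 left out 3 to 5 were called in all.

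Of 33 other receptors that signal through JAK1 or JAK2, 15 were tested; 2 rose, 3 fell and the median was 0.16. OSMR, a receptor chain for oncostatin M, averaged 579 ± 15.1 CPM in knockout and 244.7 ± 57.6 CPM in parental libraries (1.24, adjusted p = 0.00528). IL27RA, a chain of the interleukin-27 receptor, averaged 12.9 ± 0.821 CPM in knockout and 3.96 ± 1.09 CPM in parental libraries (1.70, adjusted p = 0.00249). IL22RA1, a chain of the interleukin-22 receptor, averaged 0.695 ± 0.122 CPM in knockout and 5.34 ± 1.39 CPM in parental libraries (-2.94, adjusted p = 0.000686). IL7R, which encodes the interleukin-7 receptor alpha chain, had 1 read over the 3 knockout libraries and 462 over the 3 parental libraries; the parental to knockout ratio was 458 (95% counting interval 81.7 to 18100). Of those parental reads, 306 were in replicate 3, and IL7R reached the low-count filter in parental libraries only. Without that library, 6 of 17 tested rose and 8 fell, with a median of 0.07. IL10RA and IL2RG were tested only in that fit. IL10RA had 4, 4 and 7 reads in knockout libraries against 25 and 19 in parental ones, and IL2RG had 4, 2 and 4 against 19 and 22. These genes and IL7R reached the filter in parental libraries only, so they could only be called falling.

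Genes that interferons induce mostly moved down. Of 30 ISGF3 targets 26 were tested; 1 rose, 19 fell and the median was -1.23. MX2 and OAS2 are among the 19 and reached the low-count filter in parental libraries only, so they could only be called falling. Without them 1 rose and 17 fell of 24, with a median of -1.20. OASL and RSAD2, among those 17, reached the filter in only some knockout libraries, so they too passed through the parental ones. With at least 1 CPM asked for in 3 libraries 1 rose and 16 fell of 24. That filter can also be met by 1 group alone, so it does not remove this limit. MX2, OASL and IFIT1 met it in parental libraries only, and IFI6 in knockout libraries only. MX1, an antiviral GTPase, averaged 1.35 ± 0.200 CPM in knockout and 9.39 ± 4.29 CPM in parental libraries (-2.79, adjusted p = 0.0025). The interferon-inducible genes SAMD9L and PARP12 also fell, by 1.74 and 0.81 on the log2 scale, and the transcription factor gene IRF7 averaged 2.66 ± 0.196 CPM in knockout and 7.50 ± 1.15 CPM in parental libraries (adjusted p = 0.00158). With any knockout library left out, 13 of 27 tested genes of this list fell. Without parental replicate 3, 1 rose and 21 fell of 26, with a median of -1.20. IFI6, named after its values were seen, was the 1 gene that rose (0.98, adjusted p = 0.0106), a call lost without knockout replicate 2 or 3 (adjusted p up to 0.057). Of 20 interferon gamma and GAS targets, which include SOCS1, 13 were tested; none rose, 7 fell and the median was -0.78. GBP4 and SOCS1 are among the 7 and reached the filter in parental libraries only; without them 5 of 11 fell, with a median of -0.68. Among them CD274, which encodes PD-L1, changed by -1.58, GBP1, a GTPase, by -1.79, and PSMB8, an immunoproteasome subunit, by -2.54, or by -1.93 without parental replicate 3. GBP2 changed by -0.68, a call lost with knockout replicate 1, 2 or 3 left out (adjusted p up to 0.0647). In those same fits the count of 7 became 4. Without parental replicate 3 there were 3 rising and 7 falling, with a median of -0.81. The summed level of this list was 557 to 613 CPM in knockout and 385 to 522 CPM in parental libraries, and most of it was WARS, a tRNA synthetase gene that was not called (0.63, adjusted p = 0.0783). Without WARS the sum was 109 to 112 CPM in knockout and 160 to 173 CPM in parental libraries.

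Of 22 STAT3 targets, a list that matters here because SOCS3 restrains STAT3 signalling, 17 were tested; 2 rose, 4 fell and the median was -0.27. LRG1 and FGB are among the 4 and reached the filter in parental libraries only. Without them 2 rose and 2 fell of 15, with a median of -0.25. SAA2, 1 of those 2 falling genes, reached the filter in only some knockout libraries, so it too passed through the parental ones. OSMR, given above, and CEBPB, a transcription factor gene, rose. CEBPB averaged 127.8 ± 6.35 CPM in knockout and 79.9 ± 15.2 CPM in parental libraries (0.68, adjusted p = 0.0239), a call lost with knockout replicate 1, 2 or 3 left out (adjusted p up to 0.0945). BCL6, a transcriptional repressor gene, averaged 11.6 ± 0.542 CPM in knockout and 18.0 ± 1.07 CPM in parental libraries (-0.64, adjusted p = 0.00805), a call lost without knockout replicate 2 or 3 (adjusted p up to 0.0575). LRG1, a secreted glycoprotein gene, averaged 0.0811 ± 0.0259 CPM in knockout and 5.39 ± 5.20 CPM in parental libraries, and its fitted change of -6.01 was -4.89 without parental replicate 3. Without that library 6 of the 17 rose and 9 fell, beside 61.6% of all genes called in that fit, with a median of -0.21. Without knockout replicate 2 or 3 there were 3 called.

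**Figure D4:**
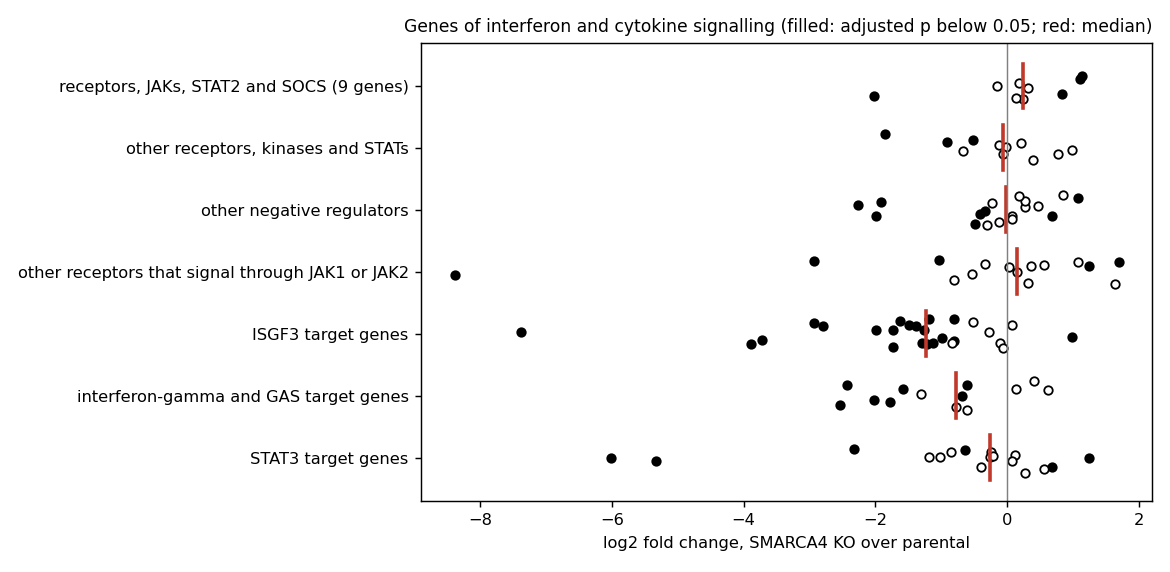
Log2 fold change, SMARCA4 knockout over parental, of each tested gene in the group of 9 and in 6 lists of interferon and cytokine signalling genes; filled points have an adjusted p below 0.05 and red bars are medians. The 9 genes lie on both sides of 0, and the ISGF3 targets lie mostly below it, at a median of -1.23. The points of IL7R and MX2 at the far left rest on 1 knockout read each.

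IFNAR2, IL10RB, IFNAR1 and IFNGR2 lie side by side on chromosome 21, within a run of genes from OLIG1 to ITSN1. Of the 12 tested, these 4 included, 2 rose and 1 fell, a share near the 27.6% of all genes, with a median of 0.21. CRYZL1, which encodes a quinone oxidoreductase-like protein, rose by 0.48 (adjusted p = 0.0234), a call lost when any library other than parental replicate 3 was left out (adjusted p up to 0.103). OLIG1, a transcription factor gene, fell (-1.23, adjusted p = 0.013), which was lost without knockout replicate 1 or 2 (adjusted p up to 0.0679). The 7 other neighbours that did not pass ranged from -0.67 for DONSON to 0.40 for DNAJC28. IL10RB, a chain of the interleukin-10 and interferon lambda receptors, was among them at 0.440 ± 0.0808 CPM in knockout and 0.333 ± 0.0353 CPM in parental libraries; it shares 38.1% of its exon bases with AP000295.1. Without parental replicate 3, 4 of the 12 rose and 2 fell, beside 61.6% of all genes called in that fit, with a median of 0.10. With a knockout library or parental replicate 1 left out 0 or 1 was called.

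Around JAK2 on chromosome 9, 14 genes were tested; 1 rose and 4 fell, and the median was 0.06. The glutamate transporter gene SLC1A1 rose (0.73, adjusted p = 0.00773), and CD274 fell, as given above. PDCD1LG2, which encodes PD-L2, changed by -2.82 (adjusted p = 0.0485), the relaxin gene RLN2, which reached the low-count filter in parental libraries only, by -2.14 (adjusted p = 0.0303) and SPATA6L by -1.10 (adjusted p = 0.0433). Each of these 3 calls was lost when a knockout library or parental replicate 1 was left out (adjusted p up to 0.154). PDCD1LG2 reached the filter in every parental library but only some knockout ones, so it too passed through the parental group. Its groups overlapped, as parental replicate 3, at 0.194 CPM, lay within the knockout range of 0.159 to 0.200 CPM. JAK2 and 8 neighbours did not pass, and those neighbours ranged from -0.14 for RCL1 to 0.34 for INSL4. Without parental replicate 3, 3 of the 14 rose and 6 fell, beside 61.6% of all genes called in that fit, with a median of -0.04. With any other library left out 2 or 3 were called.

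**Figure D5:**
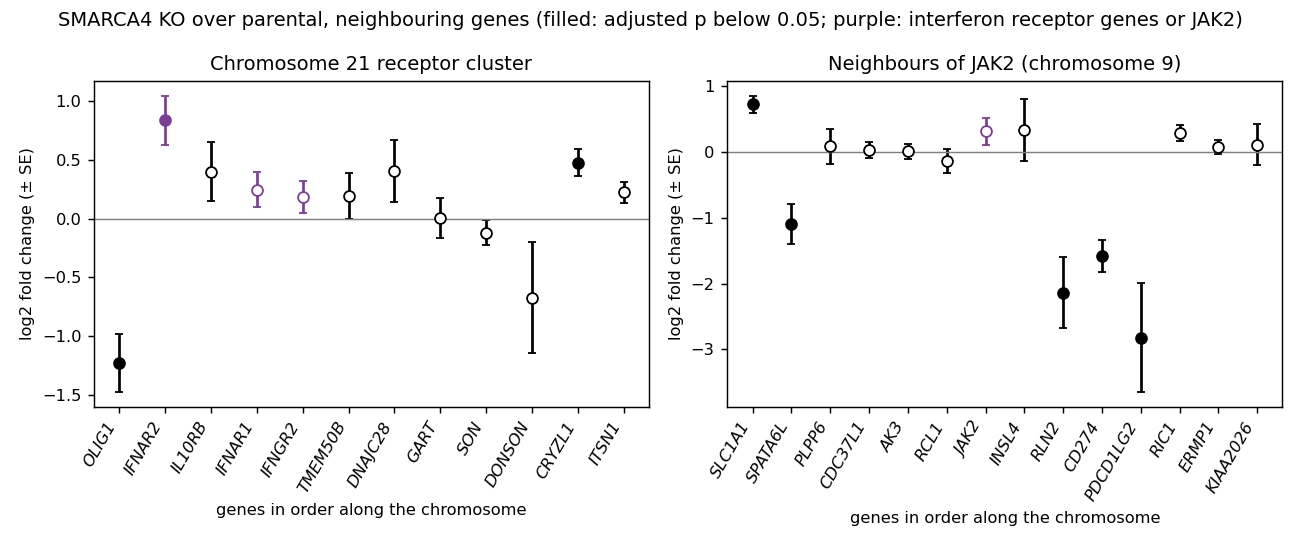
Log2 fold change ± SE, SMARCA4 knockout over parental, of tested genes in their order along chromosome 21 around the receptor cluster (left) and along chromosome 9 around JAK2 (right); filled points have an adjusted p below 0.05 and purple marks receptor genes and JAK2. IFNAR2 at 0.84 stands above IFNAR1 at 0.25 and IFNGR2 at 0.18. JAK2 at 0.32 and 8 neighbours from -0.14 to 0.34 did not pass, whereas SLC1A1 rose and SPATA6L, RLN2, CD274 and PDCD1LG2 fell.

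The closest profile to each of the 9 genes was sought among 118 tested genes of the other lists, as the root mean square distance of centred log2 CPM over the 6 libraries. SOCS6 was closest to IFNGR1 (distance 0.06), SOCS7 to both IFNAR1 and JAK2 (0.06 each), STAT5B to IFNGR2 (0.06) and KIAA2026 to JAK1 (0.06). IRF9 was closest to STAT2 (0.15), WARS to IFNAR2 (0.14), IFI6 to SOCS3 (0.23) and IFI27 to SOCS1 (0.36). With 2 groups and 1 library that stands apart, small distances mostly mean the same step between groups and the same place of parental replicate 3.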

How the data were processed

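For each library the authors deposited 1 file of raw counts by gene symbol. TopHat2 2.1.1, HTSeq 0.11.0 and hg38 are named per the submitters' processing notes, whereas the gene annotation and the strandedness of counting were not given in the sources used here. Per the labels' protocols, libraries were made from total RNA of cultured cells with the NEBNext Ultra II DNA kit. Unassigned reads, 13.8% to 15.3% of each file, stayed out of library sizes and tests.

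Counts were filtered with edgeR's filterByExpr, scaled by TMM and tested in R 4.3.3 with edgeR 4.0.16, using its quasi-likelihood F-test in the robust form with group as the only term. SEs come from the F values. Read ratios had 0.5 reads added. Positions, exon lengths and overlaps are from GENCODE 29 (GRCh38), matched by symbol.

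The members, lists and tests were chosen with earlier results of these data known. Beside the 9 genes, SMARCA4 and marker genes, named genes were, per list, up to 4 called genes ranked by adjusted p with a mean of at least 1 CPM, or those with the highest level where none was called, every tested neighbour, and the closest profile. In the neighbour lists, genes that did not pass are given by their range. Some list genes are not reported by name.

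Other settings tried were scaling by RLE or by upper quartile, dropping the low-count filter or asking for 1 CPM in 3 libraries, limma-voom (limma 3.58.1), DESeq2 1.42.0, the replicate number as a block, 5 reads added to ratios, and each library left out in turn.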

Additional observations from a re-analysis of the deposited data

How the results depend on the processing

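IFNGR1 and SOCS3 kept their direction and their call in every alternative. With 1 library left out, log2 fold changes ranged from 0.99 to 1.19 for IFNGR1, 1.02 to 1.23 for SOCS3, 0.61 to 0.96 for IFNAR2 and -2.45 to -1.68 for SOCS1. They ranged from 0.06 to 0.34 for IFNAR1, 0.01 to 0.25 for IFNGR2, -0.18 to 0.28 for JAK1, 0.08 to 0.44 for JAK2, -0.41 to 0.021 for STAT2, whose highest value came without parental replicate 2, -3.72 to -3.41 for SMARCA4 and -0.114 to 0.086 for SMARCA2. IFNAR2 was not called with no low-count filter (0.77), nor SOCS1 with upper-quartile factors (-1.99) or limma-voom (-1.86), and at least 1 CPM in 3 libraries removed SOCS1 from the test. SMARCA2, at 0.01, turned to -0.039 with RLE factors and DESeq2, -0.052 with no filter, -0.002 without knockout replicate 2 and -0.114 without parental replicate 3. IRF9, at -0.07, turned to 0.025 without knockout replicate 1 and 0.004 without parental replicate 2, within a range of -0.237 to 0.025. None of these SMARCA2 or IRF9 values passed. The cause of these shifts was not tested.

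Counts of called genes with 1 library left out ranged from 2692 to 11325 over all genes, the highest without parental replicate 3, against 4912 with all 6. They ranged from 2 to 5 for the 9 genes, 2 to 6 for other receptors and kinases, 3 to 14 for negative regulators, 4 to 14 for other JAK-using receptors, 13 to 22 for ISGF3 targets, 4 to 10 for interferon gamma targets, 3 to 15 for STAT3 targets, 0 to 6 for chromosome 21 neighbours and 2 to 9 for JAK2 neighbours. DESeq2 called 8 of the other JAK-using receptors, and no low-count filter left 1 call among chromosome 21 neighbours. JAK2 neighbours had 3 calls with upper-quartile factors or at least 1 CPM, and 2 with limma-voom. Ratio differences ranged from 0.55 to 0.67 for IFNAR2 to IFNAR1, -0.97 to -0.94 for IFNGR2 to IFNGR1, 0.05 to 0.26 for JAK2 to JAK1 and 2.56 to 3.68 for SOCS3 to SOCS1.

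No pairing by replicate number was seen, as deviations from group means correlated at -0.08, 0 and -0.1 for numbers 1, 2 and 3. With 3 libraries per group and parental replicate 3 apart from the others, these correlations are constrained and cannot exclude a pairing. With the replicate block, 3040 genes were called, 4 negative regulators, 1 chromosome 21 neighbour and 2 JAK2 neighbours, and IFNAR2 was not called (0.86, edgeR adjusted p = 0.0671). SOCS1, at 4 to 41 reads per library, is the gene most limited by depth.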
